A study of Mus musculus with 42 samples.

Results

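RNA of goblet cells from the proximal colon was set against RNA of goblet cells from the distal colon, in control mice. The series holds 42 libraries of sorted colonic cells and organoids from a study of BMP signaling in the stroma. The 4 libraries described here are GWTM2, with 2 from each segment, and they were chosen by their labels. GWTM2 mice carry Gli1CreERT2, an inducible Cre active in Gli1+ stromal cells, and a Muc2-mCherry reporter, and their genotype is given as WT, without the floxed genes of the knockouts. They received tamoxifen on 5 consecutive days, as did the knockouts, and cells were taken at day 30. Mice were 2 to 4 months old and of both sexes. The labels give the injection as subcutaneous, and the study's methods give it as intraperitoneal. Goblet cells were collected as Muc2-mCherry+ cells, so the reporter of a mucin gene defined the cells. Whether a library holds 1 mouse or a pool is not stated, and p-values measure only the spread between these libraries. By the reads given below, the 2 libraries of each segment differ in sex. Their spread therefore holds differences between animals and sexes together with technical ones, which cannot be told apart. GA3M2 mice (Gli1CreERT2-Alk3-loxp, with Alk3 deleted in Gli1+ cells) and GS4M2 mice (Gli1CreERT2-Smad4-loxp, with Smad4 deleted there) carry the same reporter and gave 4 goblet cell libraries each. GWTT mice, which carry Gli1CreERT2 and a tdTomato reporter, gave 4 control libraries of Gli1+ stromal cells. These groups appear below where they show how the difference holds elsewhere.

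Goblet cells secrete the gel-forming mucin Muc2 together with proteins that bind to it and stabilise it. The mucin carries a dense coat of O-glycans, which transferases extend with galactose, N-acetylglucosamine, fucose, sialic acid and sulfate. The colon keeps positional information along its length in the Hox genes, which lie in clusters and encode homeodomain transcription factors. Genes with low numbers are as a rule used more anteriorly and genes with high numbers more posteriorly.

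The GWTM2 libraries held 15879171 to 19831119 reads on named genes. Values are given in CPM, the usual counts-per-million scale on which every library has the same total. Of 14041 genes with a row in both control tables, 12420 reached a mean of at least 1 CPM and were tested. Differences are proximal minus distal on the log2(CPM + 1) scale, which understates the change of low genes. The segments were deposited in separate tables, each with its own normalization, and the scaling to each library's total removed that factor. The reads of Xist and of Ddx3y, Eif2s3y, Kdm5d and Uty on chromosome Y placed a female library and a male library in each segment: Xist was 1200.4 and 0.378 in the proximal libraries and 1193 and 0.813 in the distal ones. Library number and sex were therefore the same term among these 4 libraries. Of the goblet cell core list (genes that mark goblet cells), 28 of 28 members had a row and passed the filter, with a summed level of 40304 to 70844 CPM. Of 21 stromal markers 5 had a row, with Col3a1, Dcn and Pdgfra not among them and Col1a1 at 0.0504 and 0 in proximal and 0.283 and 0 in distal cells. Those 5 summed to 16.0 to 22.7 CPM in goblet cells, most of it Pdgfrb, and to 8350 to 11084 CPM in GWTT cells. The immune markers summed to 62.9 and 42.4 CPM in proximal and to 152 and 54.0 in distal cells, with the first library the higher one in each segment.

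In GWTM2 goblet cells 58 of 12420 genes (0.467%) differed between the segments at a limma adjusted p under 0.05 and an absolute log2 difference of at least 1. Of these, 36 were higher in the proximal colon (0.29% of the genes tested) and 22 in the distal colon (0.177%). The 58 genes had no overlap between the proximal and the distal libraries. Over all genes tested, 26.5% were higher in proximal and 18.5% higher in distal cells without overlap. All 58 kept their direction within the female libraries and within the male libraries, with an absolute difference of at least 1.17. The call itself asks for a large difference and a small spread in these same libraries, so neither trait is a separate test. With 2 libraries a side, the smallest p of an exact permutation test is 0.333, so the adjusted p of limma, which borrows the spread from all genes, is given below.

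The number of genes that passed moved with the model far more than the direction did. With sex as a term in the fit, which here is the library number, and which cannot be told apart from any other difference between the numbers, 525 genes passed (4.23%), 336 higher in proximal (2.71%) and 189 in distal cells (1.52%), and the 58 were among them. At an unadjusted p under 0.05 and the same size, 533 passed (4.29%), 342 of them toward proximal (2.75%) and 191 toward distal (1.54%). edgeR without that term called 0 genes at an adjusted p under 0.05, with a smallest adjusted p of 0.0532. A 0 by edgeR in any list below follows from this and says nothing about the list. At an unadjusted p under 0.05 and the same size edgeR passed 630 genes. Unadjusted counts over all genes carry this size limit throughout, while those within a list carry none. For the latter no share over all genes is given, and the 4.29% does not serve as one. Such a list count therefore cannot be read as many or few. DESeq2 called 392 of the 12420 genes, with all 58 among them. Without the first or the second proximal library 2 genes and 1 gene passed, and without the first or the second distal library 320 and 488 passed. TMM scaling ended 20 of the 58 calls, those of Abcc5, Aqp1, B4galnt2, Car8, ccdc198, Cd44, Ces1f, Fut9, Gnao1, Gsta4, H2-T3, Kcnh3, Lamb1, Mfap3l, Rian, Saa1, Slc17a4, Slc37a2, Stra6l and 1700025G04Rik, without a change of direction. Upper-quartile scaling ended 23, which were these and Dlk1, Gm2115 and Slc25a12. The distal libraries stood further apart than the proximal ones, with a mean absolute log2 distance of 0.354 against 0.229 and 691 against 225 genes at least 2-fold apart.

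**Figure D1:**
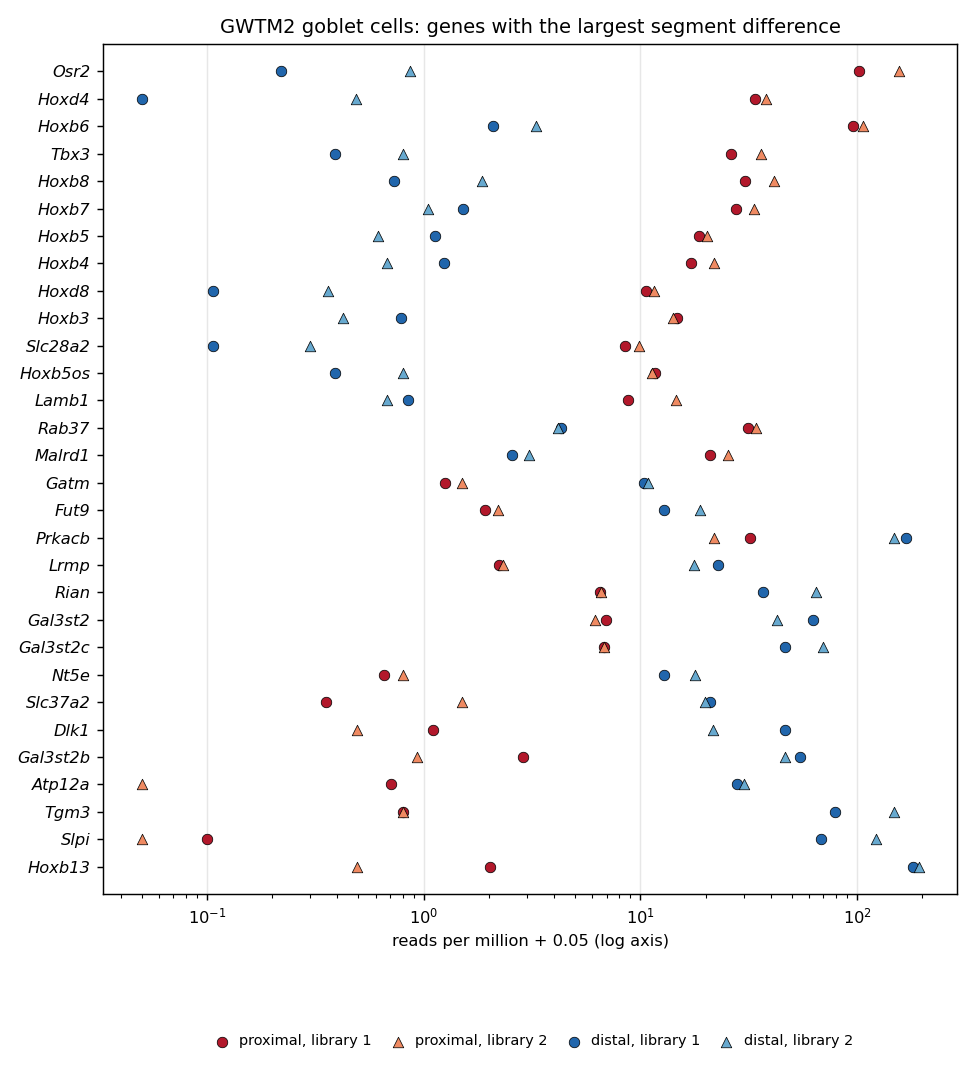
CPM (reads per library total, plus 0.05, log axis) of the 15 genes with the largest difference in each direction among the 58 that passed, in the 4 GWTM2 libraries. Circles are library 1 and triangles library 2, red shades proximal and blue shades distal, and the red and blue points of each gene do not overlap.

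The Hox genes were called on both sides. Of 39 Hox genes, 20 had a row in both tables and 19 were tested. Of the 19, 8 were called higher in the proximal colon and 1 in the distal colon, with a median difference of -0.01 against 0.03 over all genes. The shares called over all genes were 0.29% and 0.177%. Of the 8, 6 are neighbours in the Hoxb cluster, Hoxb3 to Hoxb8, and the other two are Hoxd4 and Hoxd8.

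Hoxb13, the last gene of the Hoxb cluster (chromosome 11, 96194316 to 96197447, GRCm38), stood at 1.97 and 0.441 CPM in the proximal libraries and at 181 and 192 in the distal libraries. Distal libraries were far above proximal ones, with a log2 difference of -6.50 ± 0.36 (SE; adjusted p = 0.0199). The difference was -5.94 and -7.07 within the female and within the male libraries. Hoxb6 (chromosome 11, 96292476 to 96301569) went the other way, at 95.5 and 107 in the proximal and 2.04 and 3.25 in the distal libraries. Its log2 difference was 4.83 ± 0.22 (SE; adjusted p = 0.0199). The start sites of Hoxb13 and Hoxb9, next to each other among the named genes of this cluster, lie 77.1 kb apart, while those from Hoxb9 to Hoxb3 lie 4.7 to 14.9 kb apart.

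Hoxb8 was at 30.5 and 41.3 in proximal and 0.680 and 1.81 in distal cells, a log2 difference of 4.07. Hoxb7 was at 27.5 and 33.5 against 1.47 and 1.00 (3.82), and Hoxb5 at 18.6 and 20.3 against 1.08 and 0.563 (3.50). Hoxb4 was at 17.0 and 21.7 against 1.19 and 0.625 (3.42), and Hoxb3 at 14.7 and 14.2 against 0.737 and 0.375 (3.32). The 5 genes had adjusted p of 0.0218 to 0.0305 and levels in distal cells of 1.81 CPM or less. Hoxb9, between this block and Hoxb13, was at 108 and 145 in proximal and 62.2 and 78.2 in distal cells. Its groups did not overlap, yet its difference of 0.84 ± 0.20 (SE) stayed under 1 and did not pass (adjusted p = 0.192). The antisense gene Hoxb5os was called too (11.6 and 11.3 against 0.340 and 0.750), but the strand setting of the counting is not stated, so its reads and those of genes it overlaps cannot be told apart.

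The Hoxa cluster showed no such switch. All 9 Hoxa genes tested had a difference below 0 under all 3 scalings tried, 7 of them without overlap between the segments (18.5% of all genes were higher in distal cells without overlap), and 0 passed. Hoxa13 came closest, at 12.5 and 7.24 in proximal and 39.9 and 48.7 in distal cells, with a difference of -2.10 ± 0.28 (SE; adjusted p = 0.0683, and 0.00305 with the sex term). Hoxa9 was at 26.8 and 17.2 against 64.5 and 53.9 (-1.41, adjusted p = 0.114, 0.00198 with the sex term). Hoxa5 and Hoxa10 lay at -1.41 and -1.24 (adjusted p = 0.198 and 0.249). Hoxa2, Hoxa3, Hoxa6, Hoxa7 and Hoxa11 lay between -0.74 and -0.01. Beside 0 calls by limma and edgeR, 4 Hoxa genes (Hoxa5, Hoxa9, Hoxa10 and Hoxa13) had an unadjusted p under 0.05. DESeq2 and the fit with the sex term called 4 each, where they called 392 of all 12420 genes and 4.23% of them.

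The Hoxd genes were divided between the tables. Hoxd4 was at 33.9 and 37.9 in proximal cells and 0 and 0.438 in distal cells, and the 0 allows up to 0.17 CPM. Its log2 difference was 4.94 ± 0.26 (SE; adjusted p = 0.0199), with part of its annotated span shared with Hoxd3. Hoxd8 was at 10.6 and 11.5 against 0.0567 and 0.313 (3.35, adjusted p = 0.0274). Of the other Hoxd genes, Hoxd1, Hoxd3 and Hoxd9 had a row in the proximal table alone and Hoxd10 to Hoxd13 in the distal table alone. Hoxd3 was at 11.2 and 13.1 in the proximal libraries. Hoxd13 was at 1.87 and 15.3 in the distal libraries, which differed strongly from each other. A missing row is not a measured 0, so no difference is given. Hoxb2 had a row in the proximal table alone, and Hoxa4 had rows in both (1.26 and 0.882 and 0.567 and 0.750) with a mean under 1. None of the 9 Hoxc genes had a row in either table, and neither did Hoxb1.

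**Figure D2:**
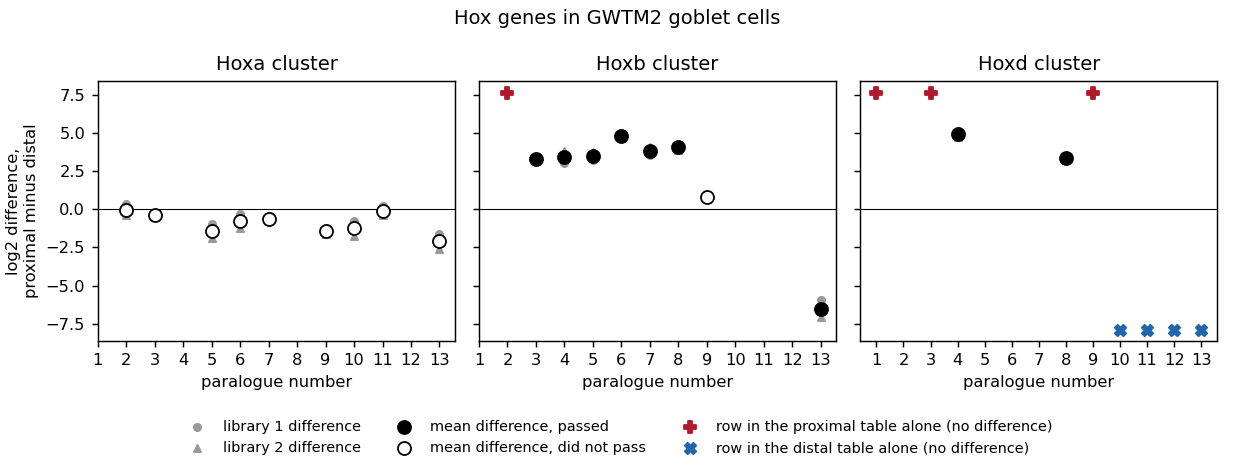
Log2 difference (proximal minus distal) of the Hox genes in GWTM2 goblet cells against their number within the Hoxa, Hoxb and Hoxd clusters. Large circles are means (filled where the gene passed), small grey marks the differences within library 1 and within library 2, and the coloured marks at the edges are named genes with a row in 1 table alone, which carry no difference. Hoxb3 to Hoxb8 lie between 3.32 and 4.83, Hoxb13 at -6.50, and all 9 Hoxa genes at or below -0.01.

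RefSeq start windows (250 bases before to 50 after the gene start, GRCm38.p6) were at hand for 38 of the 58 genes, among them 4 of the called Hox genes, shown because they moved together. Capitals mark TTTATG or its reverse CATAAA, a core of sites bound by caudal-type homeodomain proteins such as Cdx2, and CAATAAA or its reverse TTTATTG, a core bound by posterior Hox proteins. Both strands were searched.
Hoxb4 (chr11:96318017-96318316, + strand): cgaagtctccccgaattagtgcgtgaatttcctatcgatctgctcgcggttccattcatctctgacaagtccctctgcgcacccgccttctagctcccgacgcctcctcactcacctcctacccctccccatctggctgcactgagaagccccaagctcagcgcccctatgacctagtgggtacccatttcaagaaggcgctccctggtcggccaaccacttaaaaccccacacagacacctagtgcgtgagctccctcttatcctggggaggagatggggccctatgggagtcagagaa
Hoxb8 (chr11:96281655-96281954, + strand): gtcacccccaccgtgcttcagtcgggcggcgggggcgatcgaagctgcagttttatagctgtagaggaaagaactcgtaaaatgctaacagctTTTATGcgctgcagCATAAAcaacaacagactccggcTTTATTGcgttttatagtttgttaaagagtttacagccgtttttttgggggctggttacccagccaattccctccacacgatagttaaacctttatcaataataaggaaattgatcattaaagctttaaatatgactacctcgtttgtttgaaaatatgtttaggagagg
Hoxd4 (chr2:74721728-74722027, + strand): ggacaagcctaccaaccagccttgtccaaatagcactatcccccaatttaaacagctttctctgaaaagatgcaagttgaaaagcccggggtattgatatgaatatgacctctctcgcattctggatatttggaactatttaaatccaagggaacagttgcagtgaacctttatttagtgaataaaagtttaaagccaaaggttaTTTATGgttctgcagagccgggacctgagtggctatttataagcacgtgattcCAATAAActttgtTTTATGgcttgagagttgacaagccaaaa
Hoxd8 (chr2:74704365-74704664, + strand): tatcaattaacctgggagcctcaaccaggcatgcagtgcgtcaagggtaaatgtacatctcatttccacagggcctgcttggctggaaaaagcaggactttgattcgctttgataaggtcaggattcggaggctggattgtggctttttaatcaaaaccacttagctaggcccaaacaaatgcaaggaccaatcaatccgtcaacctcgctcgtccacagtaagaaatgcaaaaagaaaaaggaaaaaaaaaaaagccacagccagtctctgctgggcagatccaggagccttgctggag
The windows of Hoxb8 and Hoxd4 held TTTATG 2 times each and CAATAAA 1 time each, and those of Hoxb4 and Hoxd8 held neither. Over all 32851 windows of this length 11.9% held TTTATG and 4.6% held CAATAAA on either strand. A match describes letters and is not a measured site.

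Outside the Hox clusters, 3 of 25 tested regional transcription factors were called, all higher in the proximal colon, against 0.29% of all genes. The list median was 0.10. Osr2, a zinc finger factor of the odd-skipped family, was at 102 and 157 in proximal and 0.170 and 0.813 in distal cells, the highest difference of all 12420 genes (6.45 ± 0.32 SE, adjusted p = 0.0199). Tbx3, a T-box factor, was at 26.2 and 36.0 against 0.340 and 0.750 (4.37 ± 0.26 SE, adjusted p = 0.0227). Isx, an intestinal homeobox factor that restrains genes of carotenoid uptake, was at 129 and 144 against 42.4 and 39.3 (1.72 ± 0.12 SE, adjusted p = 0.0274). Isx thus kept a sizeable distal level, whereas Osr2 and Tbx3 stayed under 1 CPM there.

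Cdx2, the caudal-type factor of the whole intestinal epithelium, was at 315 and 312 in proximal and 194 and 201 in distal cells. Its libraries did not overlap, but the difference of 0.66 ± 0.10 (SE) lay under 1 and the adjusted p was 0.0969.

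Enzymes that sulfate and extend mucin glycans were called in both directions. All 3 genes of the galactose-3-O-sulfotransferase 2 family, which put sulfate on galactose of mucin chains, were called higher in distal cells. They were the 3 called members of the 17 tested genes of sulfation and sulfate supply, whose median was 0.20. Over all genes 0.177% were called higher in distal cells. Gal3st2b was at 2.82 and 0.882 in proximal and 54.5 and 46.2 in distal cells, a log2 difference of -4.25 ± 0.37 (SE; adjusted p = 0.0332). Gal3st2c was at 6.76 and 6.74 against 46.7 and 69.9 (-2.91, adjusted p = 0.0305). Gal3st2 was at 6.91 and 6.11 against 62.7 and 42.7 (-2.81, adjusted p = 0.0321). In each gene both distal libraries stood at least 6-fold above both proximal ones.

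The 3 genes are tandem copies on chromosome 1, with start windows (GRCm38.p6) shown for comparison of the copies, motifs in capitals as before.
Gal3st2 (chr1:93861094-93861393, + strand): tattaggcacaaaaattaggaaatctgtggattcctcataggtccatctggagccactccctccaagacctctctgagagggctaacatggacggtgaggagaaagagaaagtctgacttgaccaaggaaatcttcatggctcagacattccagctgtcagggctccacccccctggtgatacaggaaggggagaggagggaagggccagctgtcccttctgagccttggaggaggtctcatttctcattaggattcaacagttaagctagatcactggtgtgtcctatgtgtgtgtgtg
Gal3st2b (chr1:93918187-93918486, + strand): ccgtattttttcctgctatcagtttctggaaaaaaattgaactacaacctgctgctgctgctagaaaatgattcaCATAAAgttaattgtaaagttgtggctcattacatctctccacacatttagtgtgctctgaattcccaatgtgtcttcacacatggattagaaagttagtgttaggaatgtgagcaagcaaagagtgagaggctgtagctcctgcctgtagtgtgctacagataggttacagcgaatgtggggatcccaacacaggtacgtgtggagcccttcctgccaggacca
Gal3st2c (chr1:93990255-93990554, + strand): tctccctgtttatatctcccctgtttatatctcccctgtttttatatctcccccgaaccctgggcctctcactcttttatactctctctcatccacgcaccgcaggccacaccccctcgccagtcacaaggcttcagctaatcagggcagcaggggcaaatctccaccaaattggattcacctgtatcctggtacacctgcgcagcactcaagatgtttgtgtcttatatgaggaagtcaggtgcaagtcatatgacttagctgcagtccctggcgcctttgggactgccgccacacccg
The window of Gal3st2b held TTTATG once in reverse, and the other two held neither motif. In the longest annotated transcripts, 78.5% of the 50-base windows of Gal3st2, 84.3% of those of Gal3st2b and 10.8% of those of Gal3st2c occurred unchanged in a transcript of another copy. The counts come from uniquely mapped reads, so reads that matched another copy equally well would be left out. The level of each copy may therefore be too low, and levels cannot be compared between copies. The direction was the same in each.

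Of 40 tested enzymes of mucin O-glycosylation, 1 was called higher in proximal cells and 2 in distal cells (median 0.11). The shares called over all genes were 0.29% and 0.177%. B4galnt2, which completes the Sda antigen by adding N-acetylgalactosamine, was at 527 and 446 in proximal and 207 and 186 in distal cells (1.30 ± 0.14 SE, adjusted p = 0.0492). St3gal6, a sialyltransferase, was at 72.1 and 79.5 against 204 and 242 (-1.54 ± 0.13 SE, adjusted p = 0.0332). Fut9, a fucosyltransferase that makes Lewis x, was at 1.87 and 2.14 against 12.9 and 18.8 (-2.46 ± 0.25 SE, adjusted p = 0.0463). With the sex term 7 of the 40 passed in each direction, against 2.71% of all genes toward proximal and 1.52% toward distal. Among them, and picked after their values were seen, B3gnt7, which extends chains with N-acetylglucosamine, was at 143 and 73.2 in proximal and 583 and 753 in distal cells (adjusted p = 0.0622, 0.00173 with the term). A4gnt, a transferase that caps chains with N-acetylglucosamine, was at 151 and 209 against 39.9 and 59.8 (adjusted p = 0.074, 0.000256 with the term).

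Ion and water transport genes differed in both directions, with 2 of 43 called higher in proximal cells and 1 in distal cells (median 0.17). The shares called over all genes were 0.29% and 0.177%. Atp12a, the colonic proton-potassium pump, was at 0.656 and 0 in proximal and 27.9 and 30.1 in distal cells, and the 0 allows up to 0.189 CPM. Its log2 difference was -4.54 ± 0.30 (SE; adjusted p = 0.0274). Aqp1, a water channel, was at 231 and 241 against 36.2 and 59.9 (2.32 ± 0.25 SE, adjusted p = 0.0492). Car8, a carbonic anhydrase relative without catalytic activity, was at 299.8 and 439 against 84.1 and 66.3 (2.27 ± 0.23 SE, adjusted p = 0.0458).

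Several carriers of other substrates were called as well. Slc28a2, a nucleoside transporter, was at 8.47 and 9.76 in proximal and 0.0567 and 0.250 in distal cells (3.13, adjusted p = 0.0305). Slc37a2, a sugar-phosphate exchanger, was at 0.303 and 1.45 against 21.0 and 19.8 (-3.58, adjusted p = 0.0453). Of the other carriers, Abcc5 (1.64) and Slc17a4 (1.18) were higher in proximal cells and the mitochondrial carrier Slc25a12 (-1.45) in distal cells, with adjusted p of 0.0492, 0.042 and 0.042. Of 23 transporters of monocarboxylates and organic anions 0 were called by limma or edgeR, against 8 at an unadjusted p under 0.05. DESeq2 called 1, against 392 of all 12420 genes, and with the sex term 4 passed, against 4.23% of all genes.

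After Hoxb13, the largest distal differences belonged to a protease inhibitor and a cross-linking enzyme. Slpi, a secreted inhibitor of leukocyte proteases, was at 0.0504 and 0 in proximal and 68.4 and 123 in distal cells. These are 1 read against 3171 reads, a ratio of 3366 with an exact 95% counting interval of 604 to 133005, and the log2 difference was -6.50 ± 0.32 (SE; adjusted p = 0.0199). Tgm3, a transglutaminase that joins proteins by covalent bonds, was at 0.756 and 0.756 against 79.3 and 148 (-5.96 ± 0.33 SE, adjusted p = 0.0199). For Slpi and Tgm3 the second distal library was the higher one, and both distal libraries stood far above both proximal libraries.

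Of 20 tested genes of squamous-like and repair states, 2 were called, both in the distal direction (0.177% of all genes). These were Anxa1 (60.4 and 59.3 against 149 and 139, -1.26, adjusted p = 0.0329) and Anxa8 (7.26 and 6.68 against 30.6 and 37.9, -2.14, adjusted p = 0.0332), annexins that bind membrane phospholipids. Nt5e, the ectonucleotidase that forms adenosine, was at 0.605 and 0.756 in proximal and 12.7 and 17.9 in distal cells (-3.26, adjusted p = 0.0305). Gprc5a, an orphan receptor, rose toward the distal end by a smaller step (69.5 and 65.9 against 168 and 185, -1.37, adjusted p = 0.0321). Saa1, an acute-phase apolipoprotein and the called member of 22 tested secreted defence genes, was at 16.3 and 22.2 against 78.2 and 68.5 (-1.89, adjusted p = 0.0458). The share called in this direction over all genes was 0.177%.

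A pair of called distal genes come from one imprinted region of chromosome 12. Dlk1, a membrane ligand related to Notch ligands, was at 1.06 and 0.441 in proximal and 46.5 and 21.6 in distal cells (-4.25 ± 0.42 SE, adjusted p = 0.0458). Rian, a long noncoding RNA expressed from the other parental chromosome, was at 6.45 and 6.55 against 36.8 and 64.6 (-2.73 ± 0.29 SE, adjusted p = 0.0492). The 2 distal libraries ranked in opposite order for these genes. The remaining named distal genes were Prkacb, a catalytic subunit of protein kinase A (32.2 and 21.8 against 169 and 149, -2.54), Lrmp (2.17 and 2.27 against 22.7 and 17.6, -2.71) and Gatm, the first enzyme of creatine synthesis (1.21 and 1.45 against 10.3 and 10.8, -2.31). Their adjusted p were 0.0321, 0.0305 and 0.0351.

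Of 50 tested genes of xenobiotic and retinoid metabolism, whose enzymes modify foreign compounds and vitamin A, 2 were called, both higher in proximal cells. The share called in this direction over all genes was 0.29%. Ces1f, a carboxylesterase, was at 187 and 236 in proximal and 56.8 and 66.5 in distal cells (1.76 ± 0.16 SE, adjusted p = 0.0393). Gsta4, a glutathione transferase that clears products of lipid peroxidation, was at 50.1 and 53.2 against 10.8 and 14.4 (1.96 ± 0.18 SE, adjusted p = 0.0409). The list's median was 0.63 against 0.03 over all genes, and 37 of 50 members lay above 0, against 6814 of all 12420 genes. With the sex term 16 passed toward proximal and 5 toward distal, against 2.71% and 1.52% of all genes. Ces1g, picked after its values were seen, was at 45.9 and 72.0 against 1.08 and 6.50 and differed between the distal libraries (adjusted p = 0.107, 0.000536 with the term). Under TMM and upper-quartile scaling 37 of 50 also lay above 0, against 6143 and 6541 of all 12420 genes, and 0 of the list passed.

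Among the remaining genes of the top 15 in the proximal direction, Rab37, a small GTPase of secretory granules, was at 31.3 and 34.3 in proximal and 4.25 and 4.13 in distal cells (2.70, adjusted p = 0.0235). Malrd1, which acts in the control of bile acid signaling, was at 20.9 and 25.4 against 2.49 and 3.00 (2.69, adjusted p = 0.0305). Lamb1, a laminin chain, was at 8.67 and 14.5 against 0.793 and 0.625 (2.84, adjusted p = 0.0492). Lamb1 is a matrix gene that GWTT stromal cells held at 1695 and 1597 CPM (proximal) and 2033 and 1904 CPM (distal). Whether carried-over RNA took part in its value was not tested. Nor was this tested for Celf2, Gnao1 and Rian, called genes whose levels in GWTT cells were also above those in goblet cells. Cd44, a hyaluronan receptor and Wnt target, was the called member of 18 stem cell and Wnt target genes (167 and 148 against 60.5 and 46.5, 1.55, adjusted p = 0.0492), whose median was 0.34. The share called in this direction over all genes was 0.29%. Apart from Chga, described next, the 12 remaining called genes were Stra6l, Kcnh3, Gnao1, Gm2115, H2-T3, Insrr, ccdc198, Mvb12b, Ntrk2, Celf2 and Mfap3l in the proximal direction, with differences of 1.31 to 2.64, and 1700025G04Rik in the distal direction (-1.73).

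Chga, the chromogranin of endocrine granules, was called higher in proximal cells (23.3 and 18.8 against 3.57 and 3.82, 2.22 ± 0.20 SE, adjusted p = 0.0353). It was the called member of 9 tested enteroendocrine markers, against 0.29% of all genes called in this direction. Of the 9 markers, 8 lay above 0, against 6814 of all 12420 genes, with a list median of 1.52. The summed level of the 12 markers with a row was 122 and 83.4 CPM in the proximal libraries and 32.9 and 28.6 in the distal ones. Chgb and Sct, which did not pass, were picked after their values were seen. Chgb stood at 54.3 and 34.4 against 8.95 and 7.38 (adjusted p = 0.055), and Sct at 10.7 and 8.94 against 0.907 and 1.94 (adjusted p = 0.0683). In such bulk samples fewer cells of a type and less RNA per cell cannot be told apart, here and for the genes above. Markers of absorptive colonocytes summed to 10112 and 14445 CPM in proximal and 8939 and 11776 in distal cells. Of the 22 tested, 11 lay above 0 and 11 below, and 2 were called, both higher in distal cells (0.177% of all genes). These were Saa1 and Slc37a2, described above under other functions. The part of absorptive cells in the differences was not tested.

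**Figure D3:**
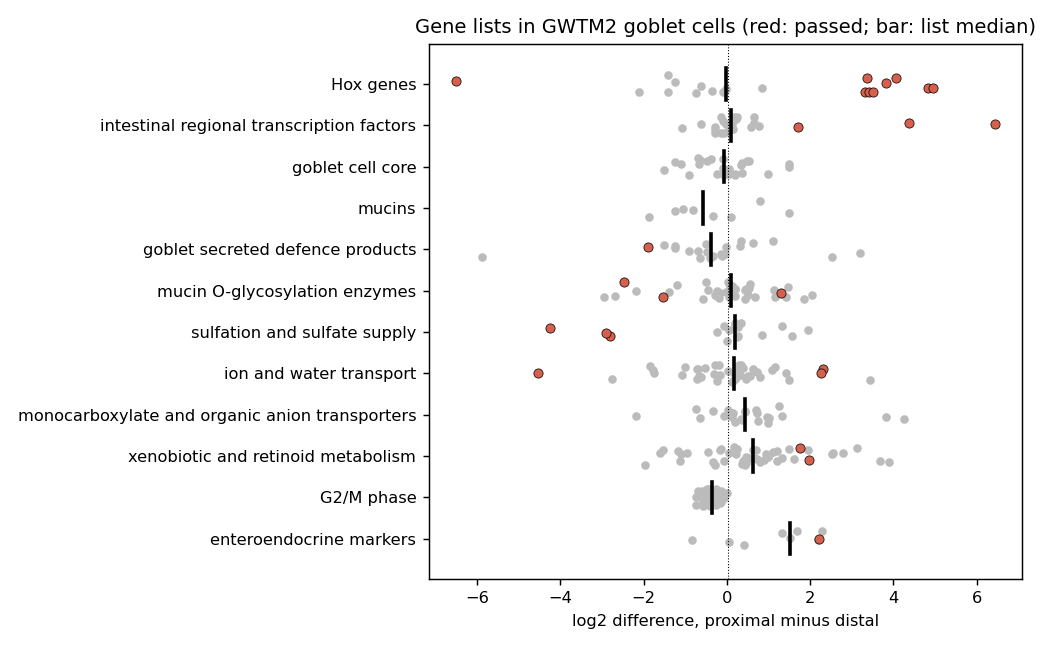
Log2 difference (proximal minus distal) of the tested members of 12 gene lists in GWTM2 goblet cells, 1 dot a gene. Red dots passed, black bars are list medians and the dotted line is the median of all genes (0.03). Hox genes passed on both sides of 0, 3 sulfation genes passed on the distal side, and the goblet cell core holds 0 that passed.

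The products that define goblet cells were not called. Of 28 core genes 0 passed by limma, against 0.467% of all genes tested, so the 0 does not set them apart. edgeR called 0 here as everywhere. The core had 7 genes at an unadjusted p under 0.05 and 3 called by DESeq2, which called 392 of all 12420 genes. With the sex term 5 core genes passed, against 4.23% of all genes. Muc2 itself was at 9908 and 12374 in proximal and 2429 and 6269.7 in distal cells. Both proximal libraries were higher, but the distal libraries differed 2.58-fold from each other, and the difference of 1.50 ± 0.51 (SE) had an adjusted p of 0.325 (0.0205 with the sex term). Muc2-driven mCherry was also the sorting gate.

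Fcgbp, which binds Muc2 in the mucus, went the other way at 5714 and 6701 against 11058 and 27739.9 (-1.50 ± 0.52 SE, adjusted p = 0.336). Clca1, a secreted protease of mucus, was at 3365 and 5778 against 6054 and 17736 (-1.23, adjusted p = 0.483). The lectin Zg16 was at 4955 and 2916 against 8773 and 5831 (-0.91, adjusted p = 0.414). The groups of these 3 genes did not overlap, and with the sex term each had an adjusted p of 0.0306 or less, with Zg16 short of a log2 difference of 1. The trefoil peptide Tff3 was at 1206 and 651 against 1954 and 1014 and overlapped (-0.67, adjusted p = 0.597).

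The goblet cell transcription factors Atoh1 and Spdef overlapped between the segments. Atoh1, which opens the secretory lineage, was at 259 and 350.2 against 328 and 306 (-0.07, adjusted p = 0.911). Spdef, which drives goblet cell maturation, was at 479 and 377 against 400.1 and 231 (0.48, adjusted p = 0.575). Of 8 tested mucins 0 passed by limma or edgeR, and 5 had an unadjusted p under 0.05. By DESeq2 3 mucins passed, against 392 of all 12420 genes. With the sex term 4 mucins passed, against 4.23% of all genes. Among secreted defence genes Mptx1, a mucosal pentraxin picked after its values were seen, was at 62.9 and 46.4 in proximal and 1603 and 6496 in distal cells. Its difference of -5.87 ± 0.66 (SE) missed the threshold (adjusted p = 0.055, 0.000704 with the sex term).

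**Figure D4:**
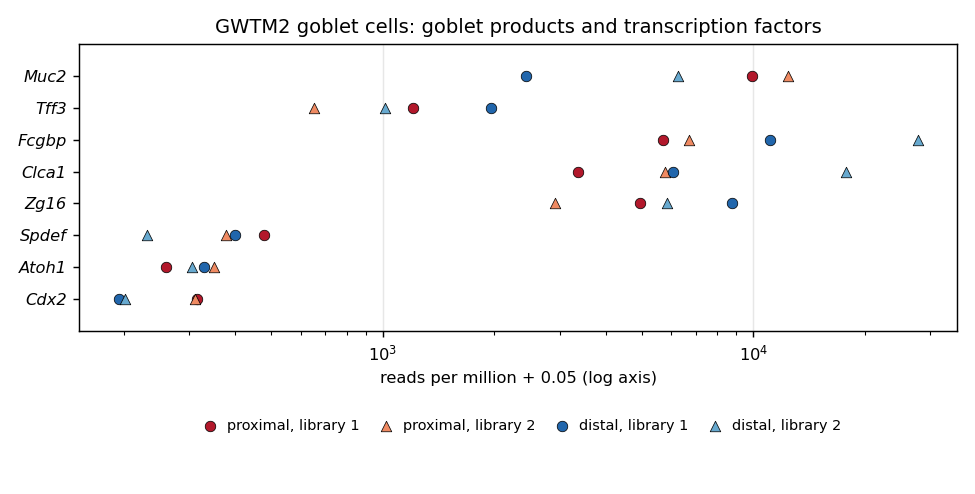
CPM (reads per library total, plus 0.05, log axis) of 8 goblet cell products and transcription factors in the 4 GWTM2 libraries, 1 point a library. Proximal points lie to the right for Muc2 and Cdx2 and to the left for Fcgbp, Clca1 and Zg16, while Tff3, Spdef and Atoh1 overlap, and none of the 8 passed.

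Genes of cell division lay on the distal side of 0 without a call. All 52 G2/M genes tested had a difference below 0 under all 3 scalings tried, with a median of -0.37, and 38 of them did not overlap between the segments (18.5% of all genes). Calls numbered 0 by limma, edgeR, DESeq2 and with the sex term, since the lowest value was -0.74. At any size 23 of the 52 had an unadjusted p under 0.05, a count without a share over all genes to set it against. Of 39 S phase genes 29 lay below 0 (median -0.18), against 5606 of all 12420 genes. Genes of endoplasmic reticulum folding, which secretory cells need, had a median of -0.09 over 31 genes, with 0 calls by limma, edgeR or DESeq2, 3 at an unadjusted p under 0.05 and 1, Agr3, with the sex term.

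The other goblet cell libraries offer the same comparison in samples that the control fit did not use. In GA3M2 cells 101 of 12351 genes were called (0.818%), 45 higher in proximal cells (0.364%) and 56 in distal cells (0.453%). In GS4M2 cells 718 of 12404 were called (5.79%), 425 in the proximal direction (3.43%) and 293 in the distal direction (2.36%). All 8 of these libraries were male by Xist and chromosome Y reads.

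Of the 36 genes higher in proximal GWTM2 cells, 35 kept their sign in GA3M2 cells and 18 were called there. Lamb1 was the exception (-0.57, adjusted p = 0.713). In GS4M2 cells 28 of the 36 had a value, all 28 kept their sign and 26 were called. Hoxb3, Hoxb5os, Hoxd4, Hoxd8, Lamb1, Osr2, Slc28a2 and Tbx3 had no value there and could not be compared. Of the 22 genes higher in distal cells, 20 of 21 kept their sign in GA3M2 cells and 15 were called, with Saa1 at 0.06 and Slc37a2 without a value. In GS4M2 cells 20 of 20 kept their sign and 18 were called, with Atp12a and Slpi without a value. The knockouts change the stroma around the cells, so these libraries are not repeats of the control.

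In all 3 genotypes 12 genes were called higher in proximal cells, among them Hoxb4 to Hoxb8, Isx, Car8, Ntrk2 and Malrd1. In the distal direction 13 were called in all 3, among them Hoxb13, Tgm3, Fut9, St3gal6, Gal3st2b, Gal3st2c, Dlk1, Rian and Prkacb. Hoxb13 was at 0.220 and 0.289 in proximal and 134 and 174 in distal GA3M2 cells, and at 0.767 and 1.51 and 263 and 317 in GS4M2 cells. Hoxb6 was at 79.8 and 75.7 against 0.854 and 1.23 in GA3M2 cells and at 94.2 and 116 against 0.225 and 0.158 in GS4M2 cells. In both genotypes the segments stayed apart by log2 differences of -6.94 and -7.10 for Hoxb13 and 5.27 and 6.47 for Hoxb6.

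Genes that missed the threshold in GWTM2 cells are given with their own values in the knockouts. Hoxa13 differed by -2.59 in GA3M2 cells (adjusted p = 0.011) and -2.67 in GS4M2 cells (adjusted p = 0.00156), and Hoxa9 by -1.60 (adjusted p = 0.043) and -1.24 (adjusted p = 0.0242). Muc2 differed by 0.05 (adjusted p = 0.965) and 0.85 (adjusted p = 0.0875). Mptx1 differed by -4.68 (adjusted p = 0.00109) and -5.84 (adjusted p = 0.00262). Chga passed in GWTM2 and GA3M2 cells (2.13) and was at 0.59 in GS4M2 cells (adjusted p = 0.424).

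**Figure D5:**
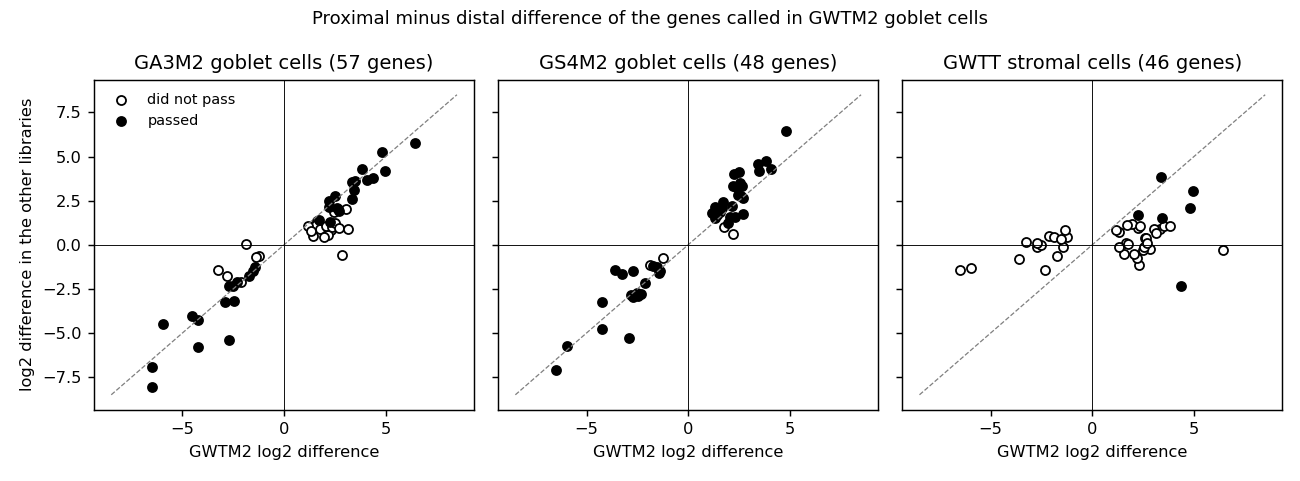
Log2 difference (proximal minus distal) of the genes called in GWTM2 goblet cells (x axis) against their difference in GA3M2 and GS4M2 goblet cells and in GWTT stromal cells (y axis), 1 point a gene, filled where the gene was called there. The dashed line marks equal differences, and GA3M2 and GS4M2 points lie in the same quadrants but for Lamb1 and Saa1 in GA3M2 cells, whereas the stromal points have medians of 0.66 (31 proximal genes) and -0.02 (15 distal genes).

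In GWTT stromal cells the same segments differed in 373 of 14279 genes (2.61%), 142 toward proximal (0.994%) and 231 toward distal (1.62%). One proximal stromal library was male and the other three were female by Xist and chromosome Y reads. Of the 36 proximal genes 31 had a stromal value, 21 kept their sign and 5 were called (Hoxb4, Hoxb6, Hoxd4, Hoxd8 and Car8). Of the 22 distal genes 15 had a value, 8 kept their sign and 0 were called higher in the distal stroma by limma, with 6 at an unadjusted p under 0.05 in either direction, 0 by edgeR and 2 by DESeq2.

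The difference between the cell types was tested as an interaction over the 8 libraries, where 145 of 12459 genes passed (1.16%), 96 more proximal in goblet cells (0.771%) and 49 more distal (0.393%). Tbx3 was higher in the distal stroma (7.22 and 11.8 in proximal and 52.9 and 50.1 in distal libraries, -2.36, adjusted p = 0.00993), opposite to goblet cells, with an interaction of 6.73 (adjusted p = 0.00346). Osr2 was at 5.75 and 11.2 against 11.6 and 9.00 in the stroma (interaction 6.75, adjusted p = 0.0103). Hoxd8 was at 37.9 and 39.7 against 1.97 and 1.67 in the stroma, with an interaction of -0.47 (adjusted p = 0.507). Tbx3, Osr2 and Hoxd8 were picked by their goblet difference in libraries that also enter this test. The interaction counts rest on single libraries: without the first GWTT distal library 0 genes passed in limma, with 662 at an unadjusted p under 0.05, without the second 6, and without the second or the first GWTM2 proximal library 10 and 34. Without the first proximal GWTT library 74 passed, and without the first distal GWTM2 library 225. The stromal count itself fell to 1 without the first proximal library, to 90 without the second, and to 11 and 19 without the first and the second distal library.

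Some genes had a row in the table of 1 segment alone and could not be compared. In the proximal table, apart from Hoxd3, the highest mean levels belonged to Cyp4b1 at 3.53 and 13.0, a fatty acid hydroxylase, S100g at 5.14 and 5.86, which binds calcium in intestinal cells, Wnt5a at 2.52 and 5.29 and Fbn1 at 3.83 and 3.15 CPM. In the distal table they belonged, apart from Hoxd13, to Casp14 at 11.5 and 9.57, a protease of cornified epithelia, the mast cell protease Cma1 at 3.91 and 9.94, Atp10a at 2.61 and 2.81 and Rprm at 2.15 and 2.94. These levels are those of the 2 libraries of the segment that has the row.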

How the data were processed

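Gene counts were made by the authors from reads that STAR 2.5.3 mapped uniquely to mm10. The authors deposited a normalized signal per gene, which is counts divided by a DESeq2 (1.28.1) size factor for each library within a table of 4 libraries. Counting program, annotation and strand are not given in the sources used here. All values (100%, within 0.1 of a whole number) were multiples of 1 step per library, and the reads were taken back from it. The GWTM2 libraries, present also in the GS4M2 tables, were taken from the GA3M2 tables. Rows without a gene name (4 in each GS4M2 table, up to 28.2% of a library there) were left out, as were repeated names.

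Libraries were scaled to CPM over their table. Genes with a mean of at least 1 were tested on log2(CPM + 1) with limma 3.58.1 (trend, 2-sided, Benjamini-Hochberg), and a call needed an adjusted p under 0.05 with a log2 difference of at least 1 in size. Adjusted p are from limma unless edgeR 4.0.16 or DESeq2 1.42.0 is named. The fits were tested on simulated reads without any shared deviation by library number, so that test does not bear on the counts with or without the term. Named were Hox genes, called members of gene lists, 8 goblet cell genes, the 15 largest called differences in each direction and the highest genes of a single table. The remaining called genes are listed outside this rule, and some genes of the rule are not reported here. Members and lists were chosen with earlier results of these data known. Positions are from GENCODE M21. Intervals and the limit of 3 reads for a 0 cover counting error only. Alternatives were other pseudocounts, filters, scalings, tools, a replicate block, all 12 goblet libraries, and each library left out.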

Additional observations from a re-analysis of the deposited data

Results flagged for a closer look

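For 34 named genes the segment difference in GWTM2 goblet cells differed from that in GWTT stromal cells in the interaction test (limma over 8 libraries, adjusted p under 0.05, absolute value of at least 1), which is what brought them here. Values are goblet minus stromal, on the log2 scale. The goblet difference was the more proximal one for Osr2 (6.75), Tbx3 (6.73), Aqp1 (3.47), Lamb1 (3.10), Gm2115 (2.94), Mvb12b (2.79), Hoxb6 (2.77), Rab37 (2.62), Gnao1 (2.56), Slc28a2 (2.48), Hoxb5 (2.46), Hoxb3 (2.42), Celf2 (2.22), Cd44 (2.06), Hoxb4 (1.93) and Abcc5 (1.54). It was the more distal one for Hoxb13 (-5.39), Slpi (-5.08), Tgm3 (-4.66), Dlk1 (-4.58), Nt5e (-3.44), Gal3st2 (-3.04), Rian (-2.84), Slc37a2 (-2.79), Anxa8 (-2.61), Lrmp (-2.57), Prkacb (-2.51), Fut9 (-2.43), Hoxa9 (-1.96), St3gal6 (-1.88), Hoxa3 (-1.72), Anxa1 (-1.68), Slc25a12 (-1.33) and 1700025G04Rik (-1.12). Several of these genes are near 0 in one of the cell types: Hoxb13 was at 0 and 0.124 CPM in the proximal and 1.61 and 1.01 CPM in the distal stroma. Hoxa3 and Hoxa9 were not called within goblet cells. The others were, from the same goblet libraries that enter this test, so their selection favours a gap from the stroma. The sex of the libraries was not balanced in the stroma, and its part in these values was not tested.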

How the results depend on the processing

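The 58 GWTM2 calls kept their sign under every alternative in which they were tested, and the number called did not hold. It was 27 with a pseudocount of 0.1, 36 without a filter, 8 at a mean of at least 10, 38 with TMM and 35 with upper-quartile scaling, 0 with edgeR, 392 with DESeq2, 533 at an unadjusted p, 26 with the control columns of the GS4M2 tables and 445 over all 12 goblet libraries with genotype as a covariate. Leaving out 1 library gave 1 to 488. The replicate number as a block gave 525 in limma and 380 in edgeR, and 459 over the 12 libraries (an alternative chosen after seeing the data). Same-numbered libraries deviated together (Pearson r = 0.648 across 12420 genes, which are not independent). In GWTM2 cells the number is also the sex. The same r was 0.527 in GS4M2 and 0.3 in GA3M2 cells, all male, and 0.205 in GWTT cells. There are 2 pairs and no label ties a number to an animal, so what the shared number stands for was not tested. A pseudocount of 5 gave 62, with 54 of the 58 among them (without Dlk1, Fut9, Lamb1 and Rian), and absent rows entered as 0 gave 64, with all 58.

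In GA3M2 cells (101) the count was 63 at a mean of at least 10, 526 with the replicate block, 498 unadjusted and 110 to 789 without 1 library; edgeR and DESeq2 were not run there because 1 column's size factor lay too near 1 for the recovered reads to be checked. In GS4M2 cells (718) it was 405 with a pseudocount of 5, 432 at a mean of at least 10, 822 with the block and 671 to 777 without 1 library. In GWTT cells (373) it was 640 with DESeq2, 765 unadjusted, 493 with the block and 1 to 90 without 1 library. The interaction (145) gave 75 with a pseudocount of 0.1, 79 with edgeR, 492 with DESeq2, 219 with edgeR and the block, 249 with the block, 733 unadjusted, 453 with absent rows as 0, and 0 to 225 without 1 library.

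Some signs turned: without 1 library Atoh1 ranged from -0.29 to 0.14, Hoxa11 from -0.54 to 0.35, Hoxa2 from -0.25 to 0.22, Cd74 from -4.84 to 1.86, Reg3b from -0.19 to 6.56 and Reg3g from -0.13 to 5.20, and over 12 libraries Atoh1 was 0.25, Hoxa11 0.16, Hoxa2 0.19 and Cd74 0.17, with and without the block. Of the 58 calls, TMM ended 20, upper-quartile scaling 23, no filter 22 and the pseudocount of 0.1 ended 31. The cause was not tested. The fit over 12 libraries tested 49 of the 58 genes, since the others have no row in the GS4M2 tables. There are 2 libraries a segment, 1 of each sex, so single genes rest on few libraries.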

Other observations

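Some genes separated the first from the second library of each segment, and so the female from the male ones, and are given as values chosen after they were seen. The 7 tested MHC class II genes summed to 437 and 14.7 CPM in the proximal libraries and to 1606 and 19.6 in the distal ones. Cd74, the invariant chain, was at 244 and 3.40 in proximal and 938 and 8.07 in distal cells. Gbp2, an interferon-induced GTPase, was at 29.4 and 2.08 in proximal and 173 and 14.8 in distal cells. The antimicrobial lectins Reg3b (751 and 93.0 against 301 and 1.81) and Reg3g (311 and 56.0 against 145 and 2.63) were also higher in the first library of each segment, and higher in proximal than distal cells within each number. In the all-male GA3M2 libraries the MHC class II sum was 1773 and 1254 in proximal and 668 and 621 in distal cells, and in the all-male GS4M2 libraries 24.7 and 269 against 24.0 and 143.

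Some genes of ion and bile acid transport, again chosen after their values were seen, passed with the sex term and not without it. Car1, a carbonic anhydrase, was at 2159.7 and 5036 in proximal and 74.3 and 1228 in distal cells (3.44, adjusted p = 0.384, 0.0107 with the sex term). The bile acid carriers Slc51a (18.1 and 36.7 against 0 and 1.00) and Slc10a2 (8.62 and 30.5 against 0 and 0.500) were near 0 in distal cells, with adjusted p of 0.055 and 0.0994, and 0.000166 and 0.000787 with the term.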
